A study of Mus musculus with 4 samples.

Results

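The genes described here are the splicing factors of the deposited table: the SR proteins with their Tra2 relatives, the hnRNP and PTB proteins, the Sm and other snRNP proteins, the SF3a and SF3b subunits, the factors that recognise the 3′ splice site, the PRPF proteins, and the tissue-restricted regulators of the Rbfox, Celf, Mbnl and Nova families. They were taken by gene symbol, by a rule that used no measured values but was set with earlier results of these data known. They number 87 of the 22565 genes in the table. The RNA came from alveolar type II epithelial cells (AT2 cells), which make surfactant, isolated on a flow sorter from the lungs of untreated mice aged 6 months. There are 2 wild-type (WT) libraries and 2 libraries labelled knockout (KO), all made from ribosome-depleted total RNA with a stranded kit. The growth protocol names Fbxo45-cKO mice, while the genotype field names Fbxo45 for KO replicate 1 and Fbxo46 for KO replicate 2; the sample titles place both in the KO group. The sources used here give no Cre driver, deleted part of the gene or strain, nor whether libraries of the same group come from different mice. The p-values below hence refer to library-to-library spread, which can be technical.

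Splicing removes introns from pre-mRNA. U1 snRNP marks the 5′ splice site, SF1 and the U2AF pair mark the branch point and the 3′ splice site, and U2 snRNP, with its SF3a and SF3b subcomplexes, then takes the place of SF1. The U4/U6.U5 tri-snRNP, which contains several PRPF proteins, joins to form the catalytic spliceosome. Each snRNP except U6 carries a ring of Sm proteins. SR proteins mostly bind exonic enhancers and favour exon inclusion, whereas hnRNP proteins, PTB among them, often act as silencers. Rbfox, Celf, Mbnl and Nova proteins shift exon choice in particular tissues, chiefly muscle and brain. Many SR and hnRNP genes limit their own protein by splicing in exons that send the transcript to nonsense-mediated decay.

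Below, paired values stand in the order replicate 1, replicate 2. Depth ranged from 4167156 to 9507506 recovered fragments a library. Fbxo45 itself did not separate the groups, with 4.60 and 5.91 FPKM (fragments per kilobase, scaled to library size) in the WT pair against 4.41 and 7.58 FPKM in the KO-labelled pair, so all directions are those of the labels. AT2 markers were abundant, 12 of 12 found, with sums of 131878 and 125651 FPKM in the WT pair against 83323 and 118145 FPKM in the KO-labelled pair. Endothelial markers summed to at most 2.32 FPKM. Of 8 lymphocyte markers 5 were at 0 in all libraries. The lymphocyte list summed to 18.7 and 13.9 FPKM in the WT pair against 22.9 and 15.6 FPKM in the KO-labelled pair. Club cell markers summed to 815 to 1330 FPKM and alveolar type I cell markers to 769 to 1082 FPKM. Sums reached 46.2 FPKM for fibroblast and smooth muscle markers, 22.3 FPKM for ciliated cell markers and 13.6 FPKM for macrophage markers. Of the 7 macrophage markers, 5 were found, and 2 of those were at 0 in all libraries. The cells that gave these transcripts were not tested. KO replicate 1 stood apart in its fast skeletal muscle transcripts (13 of 13 found, none at 0 in all libraries), whose sum was 1290 FPKM there, 0.544 and 10.7 FPKM in the WT pair and 9.97 FPKM in KO replicate 2. In such bulk samples, fewer cells of a type and less RNA per cell cannot be told apart.

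Of the 87 splicing factor genes, 78 had 1 FPKM or more in 2 or more libraries and were tested. The other 9 were Srsf12, Rbfox1, Rbfox3, Celf3, Celf4, Celf5, Celf6, Nova1 and Nova2. Mean levels over the 4 libraries ran from 3.80 FPKM for Snrpn to 366 FPKM for Hnrnpk, with a median of 26.1 FPKM against 10.4 FPKM for all genes tested. By family, the median was highest in the SR proteins, at 58.6 FPKM, and lowest in the Sm and snRNP proteins, at 10.9 FPKM. The plot of levels shows that the 4 values of most members lie close together. Srsf7, Snrpe, Snrpd3, Snrpg, Snrpb2, Sf3a2, Prpf3 and Prpf4b are among those that spread widely.

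**Figure D1:**
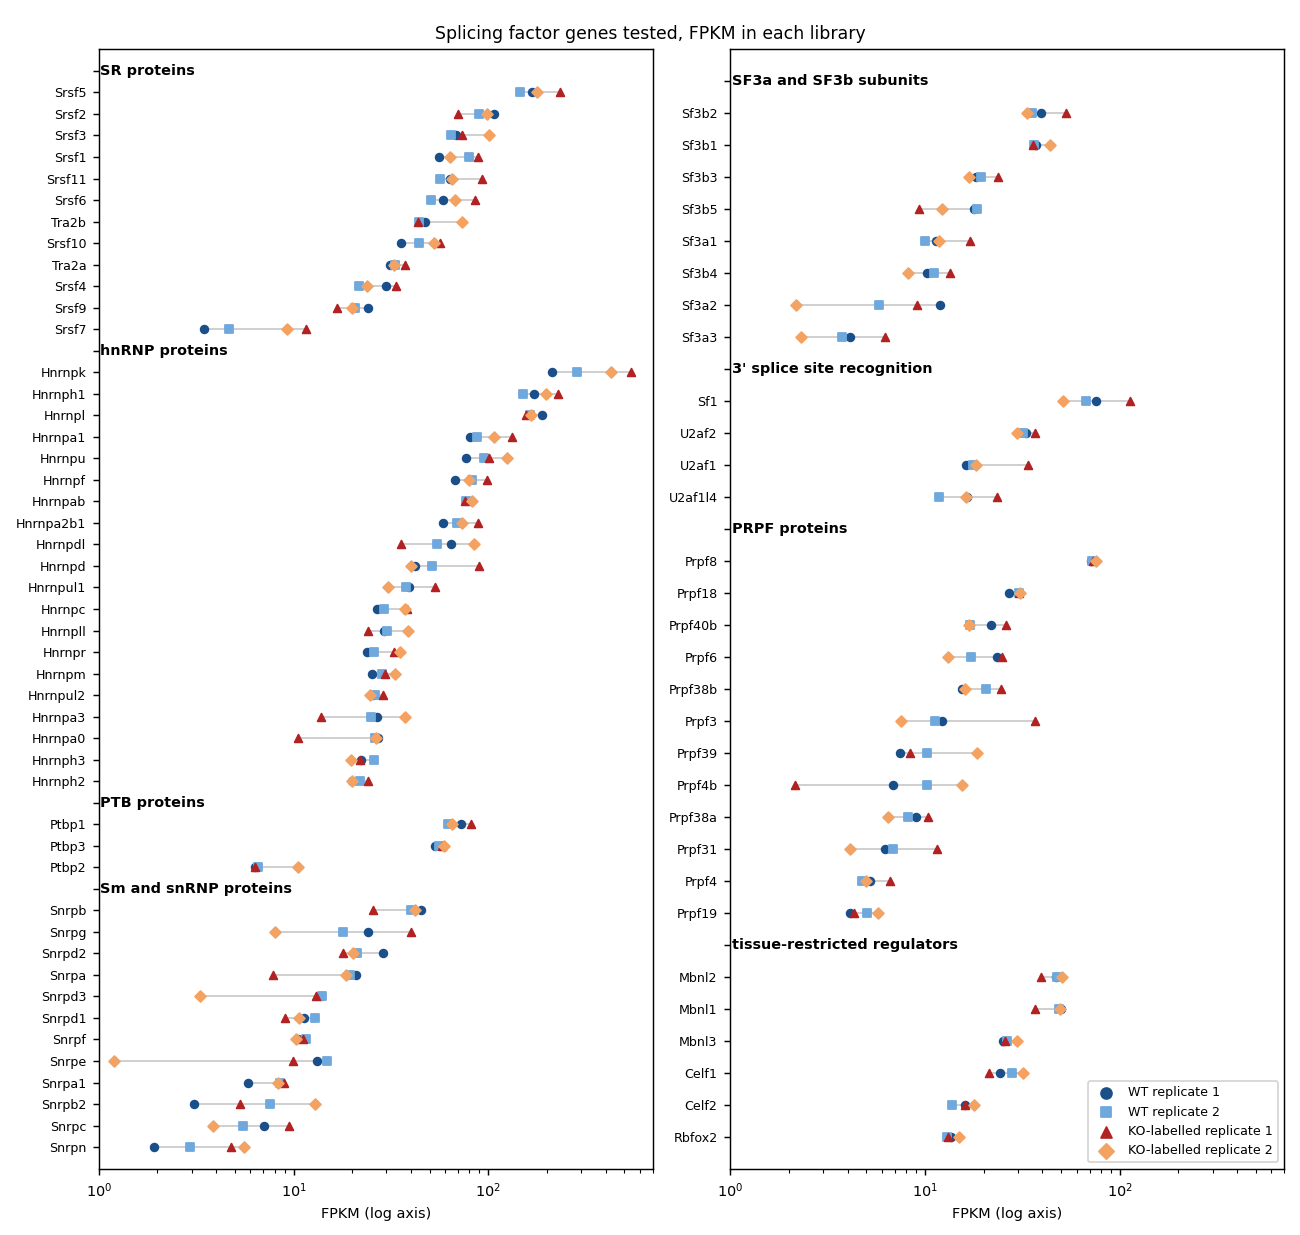
FPKM (log axis) of 77 of the 78 splicing factor genes tested, grouped by family, with 1 point per library: WT in blues and KO-labelled in red and orange. Hnrnpk was the most abundant gene and both of its KO-labelled values lay above both WT values; Snrpe lay at 1.20 FPKM in KO replicate 2 alone.

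No splicing factor differed between KO-labelled and WT libraries past the threshold. In limma on log2(FPKM + 1), 0 of 78 members had an adjusted p under 0.05, beside 0% of the 11055 genes tested. At an unadjusted p under 0.05 there were 4 members, Srsf7, Hnrnpk and Snrpn with higher (2.68% of all genes) and Sf3b5 with lower values in the KO-labelled libraries (2.16%), against 4.84% of all genes in either direction. edgeR on the recovered fragments called 0 members (0% of 11705 genes) and had 5 with an unadjusted p under 0.05 (3.18% of all genes), and DESeq2 called 0 members (0.0457% of genes with an adjusted p). The KO-labelled values lay above both WT values without overlap in 19 members and below both in 8, where 20% and 15.1% of all genes did so. These counts are near the background.

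The log2 difference was above 0 in 52 members and below 0 in 26, beside 54.1% and 45.9% of all genes tested. The median difference was 0.10 on the log2(FPKM + 1) scale, against 0.03 for all genes. Scaled to equal upper quartiles, the split became 43 above and 35 below with a median of 0.012, and the median of all genes moved to -0.04. With KO replicate 1 left out, the median of the members was 0.063 against 0.064 for all genes, and with KO replicate 2 left out it was 0.20 against 0.014. The correction for GC content and length gave 0.0355 with 42 above and 35 below.

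The 2 KO-labelled libraries differed more from each other than the 2 WT libraries did. The median absolute log2 difference over the members was 0.154 within the WT pair and 0.347 within the KO-labelled pair. KO replicate 1 lay above both WT values in 45 of the 78 members and below both in 22, and KO replicate 2 in 37 and 26. The corresponding shares of all genes were 40.2% and 38.9% in KO replicate 1, and 45.4% and 34.2% in KO replicate 2. Prpf3, Prpf4b and Snrpg lay on opposite sides of WT in the 2 libraries, and Hnrnpa0 departed from WT in 1 of them, as the plot of one KO-labelled library against the other shows.

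**Figure D2:**
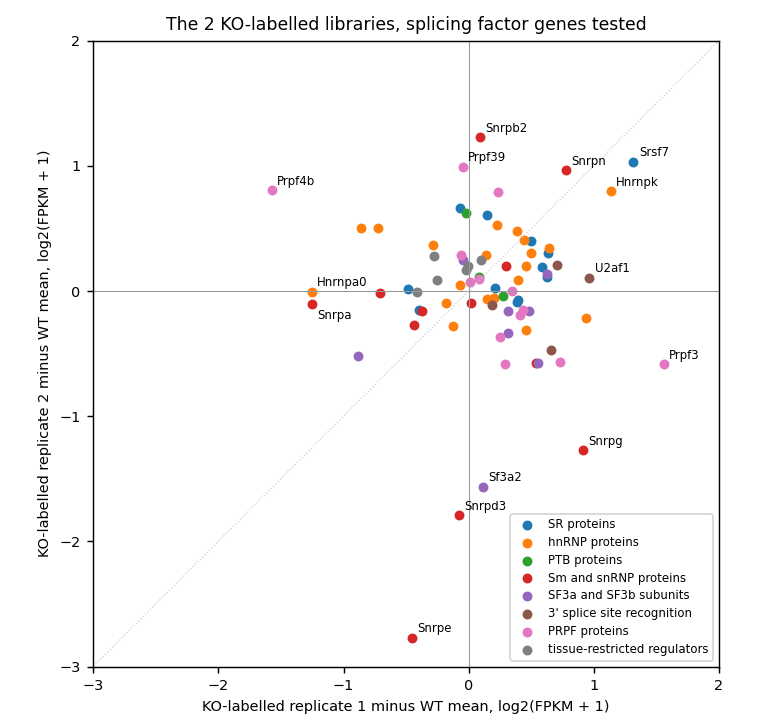
Difference of each KO-labelled library from the WT mean on the log2(FPKM + 1) scale, for the 78 members tested, coloured by family; the dotted line marks equal differences. Srsf7, Hnrnpk and Snrpn lie up and to the right in both libraries, whereas Prpf3 and Prpf4b lie in opposite quadrants.

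Counted by fragments, the splicing factors together took a slightly larger share of both KO-labelled libraries. They summed to 8028 and 8075 CPM (recovered fragments as parts of 1000000 in the library) in WT replicates 1 and 2 and to 8556 and 8792 CPM in KO replicates 1 and 2. The exact binomial 95% intervals were 7942 to 8114, 8014 to 8137, 8498 to 8615 and 8723 to 8861 CPM in the same order, and they cover counting error only. Groups were separate, but an exact permutation test of 2 against 2 libraries cannot go below p = 0.333. An abundant AT2 transcript lay the other way: Sftpc, which encodes surfactant protein C, stood at 101544 and 94984 FPKM in the WT pair against 54458 and 87684 FPKM in the KO-labelled pair. Its part in the shares of the other genes was not tested.

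SR proteins mostly had higher values in the KO-labelled libraries. Of 13 genes 12 were tested, of which 10 were higher and 2 lower in the KO-labelled libraries, with a median log2 difference of 0.33 (0.17 by edgeR). The KO-labelled values lay above both WT values in 6 members and below both in 1 (20% and 15.1% of all genes), and 0 of 12 passed the threshold in limma. The median remained above 0 under every alternative run, between 0.15 and 0.39, and was 0.15 without KO replicate 1. The family summed to 1448 and 1429 CPM in WT and to 1591 and 1723 CPM in KO replicates 1 and 2. Without Srsf5, its most abundant member, the sums were 1157, 1178, 1189 and 1420 CPM in the order WT pair, KO-labelled pair. The counting interval of KO replicate 1 was then 1167 to 1211 CPM and overlapped that of WT replicate 2, 1154 to 1201 CPM.

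Srsf7 (chromosome 17, 80200080 to 80207307, minus strand; coordinates here and below are of genes in GENCODE M21, GRCm38), an SR protein with a zinc knuckle that also acts in mRNA export and polyadenylation, showed the largest difference of the family. It stood at 3.47 and 4.66 FPKM in the WT pair against 11.5 and 9.30 FPKM in the KO-labelled pair. Both KO-labelled values lay well above both WT values, and the groups did not overlap. The recovered fragments were 37, 97, 299 and 160 in the same order of libraries. It differed by 1.18 log2 units (SE 0.273, limma unadjusted p = 0.0053 and limma adjusted p = 0.948), and 1.36 by edgeR (adjusted p = 0.999). None of its sampled transcript sequence is shared with another gene.

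Srsf5, the SR protein with the highest level, stood at 167 and 146 FPKM in the WT pair against 235 and 179 FPKM in the KO-labelled pair. There was no overlap between groups. Its log2 difference amounted to 0.39 (SE 0.222, adjusted p = 0.948 in limma). Srsf9, the member with the smallest p among those with lower values, stood at 24.1 and 20.6 FPKM in the WT pair against 16.7 and 19.97 FPKM in the KO-labelled pair, a log2 difference of -0.27 (SE 0.223, adjusted p = 0.948 in limma). Srsf12 was near 0 throughout, with 2 fragments in each WT library and 0 in each KO-labelled library, where a count of 0 allows up to 0.316 and 0.425 CPM in KO replicates 1 and 2.

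**Figure D3:**
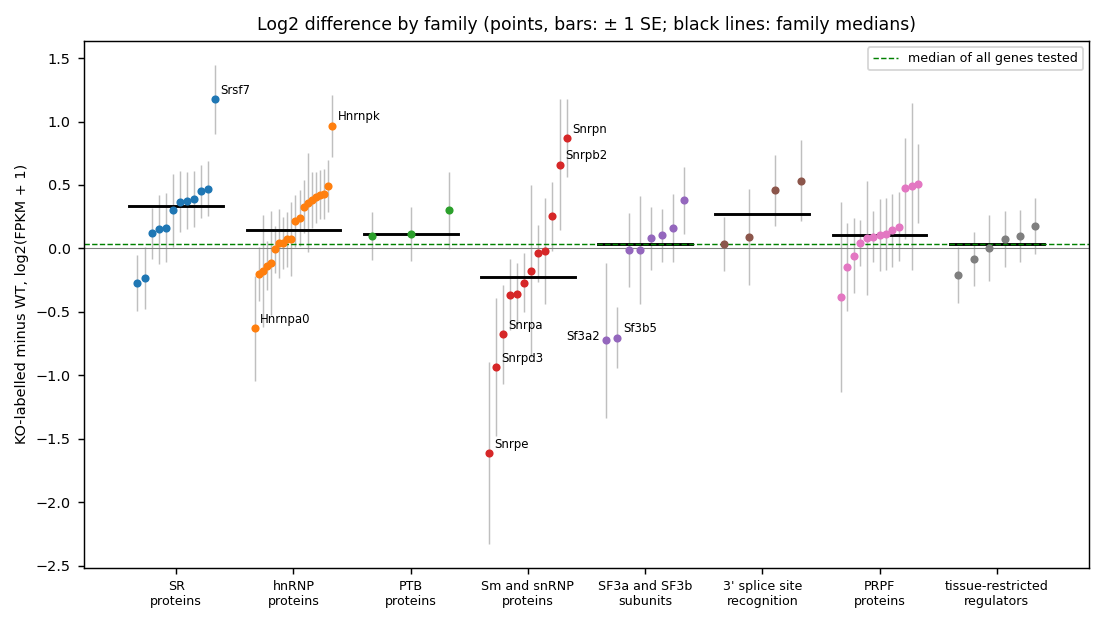
Difference between KO-labelled and WT libraries on the log2(FPKM + 1) scale for each of the 78 members tested, by family, with bars of ± 1 SE; black lines are family medians and the dashed line is the median of all genes tested, 0.03. The SR proteins centre at 0.33 and the Sm and snRNP proteins at -0.22, and no member passed the threshold.

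The hnRNP proteins, 20 genes that were all tested, were higher in 14 and lower in 6, with a median log2 difference of 0.14 (0.07 by edgeR) and 0 called. Upper quartile scaling gave 10 higher and 10 lower with a median of 0.058. The median was 0.073 over the 14 members without a shared locus, 0.25 without KO replicate 1 and 0.22 without WT replicate 2. The groups did not overlap in 8 members with higher and 1 with lower KO-labelled values (20% and 15.1% of all genes). The family summed to 2879 and 2942 CPM in WT and to 3339 and 3313 CPM in KO replicates 1 and 2. Without Hnrnpk the sums were 2579 and 2598 CPM in WT and 2811 and 2861 CPM in the KO-labelled libraries, which still did not overlap.

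Hnrnpk (chromosome 13, 58391142 to 58403343, minus strand), a KH-domain protein that binds C-rich RNA and DNA, was the most abundant splicing factor. It stood at 212 and 284 FPKM in the WT pair against 540 and 428 FPKM in the KO-labelled pair. Both KO-labelled values lay above both WT values. On the log2 scale the difference came to 0.97 (SE 0.244, limma unadjusted p = 0.0078 and limma adjusted p = 0.948). By recovered fragments the difference was smaller, 0.59 by edgeR, with 301, 344, 527 and 452 CPM in the same order of libraries. Hnrnpk shares its locus in the table with another gene, and 17.1% of its sampled transcript sequence occurs in transcripts of other genes, so its count is uncertain.

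Hnrnpa0, an intronless gene for an A/B-type hnRNP, stood at 27.2 and 26.2 FPKM in the WT pair, 10.6 FPKM in KO replicate 1 but 26.6 FPKM in KO replicate 2. KO replicate 1 alone was low, and KO replicate 2 lay between the WT values. It differed by -0.63 log2 units (SE 0.416, adjusted p = 0.948 in limma); without KO replicate 2 it was -1.26 and passed the threshold, 1 of 2 members called in that fit, where 1.21% of all genes were called. The other was Prpf3, and in that fit the lone KO-labelled library is assumed to vary as the WT pair does. Among the A-type hnRNPs, Hnrnpa1 took 41.7% and 42.0% of the summed FPKM of Hnrnpa0, Hnrnpa1, Hnrnpa2b1 and Hnrnpa3 in WT and 53.9% and 43.7% in KO replicates 1 and 2. Hnrnpa1 and Hnrnpa3 share 36.2% and 46.3% of their sampled sequence with other genes, so these shares are uncertain.

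Promoter sequences are shown for Srsf7, Srsf5 and Hnrnpk, the leading genes by difference or level of the SR and hnRNP families; these 3 were chosen after their values were seen. They are the 250 bases before the RefSeq transcription start (GRCm38.p6, transcribed strand, 5′ to 3′), with matches to the motifs in capitals. The motifs searched on both strands were the ETS letters CCGGAAG, the NRF1 letters GCATGCG, the box CCAAT, the GC box GGGCGG and the cAMP response element TGACGTCA; a sixth, TATAAA, had no match in these 3 stretches, nor had TGACGTCA. Overlapping matches are capitalised together. The stretches lie at chr17:80207306-80207555 on the minus strand for Srsf7, at chr12:80945249-80945498 on the plus strand for Srsf5 and at chr13:58402118-58402367 on the minus strand for Hnrnpk.
Srsf7: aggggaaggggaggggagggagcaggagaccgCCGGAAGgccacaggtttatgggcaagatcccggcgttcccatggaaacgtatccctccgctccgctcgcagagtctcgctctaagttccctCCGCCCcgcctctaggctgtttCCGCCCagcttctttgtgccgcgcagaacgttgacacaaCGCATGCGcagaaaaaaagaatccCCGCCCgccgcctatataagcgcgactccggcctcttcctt
Srsf5: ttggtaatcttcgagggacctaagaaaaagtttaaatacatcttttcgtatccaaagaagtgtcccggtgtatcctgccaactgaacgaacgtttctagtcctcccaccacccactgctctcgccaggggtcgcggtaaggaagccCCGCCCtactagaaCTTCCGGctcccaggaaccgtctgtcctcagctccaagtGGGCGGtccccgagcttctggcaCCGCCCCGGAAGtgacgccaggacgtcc
Hnrnpk: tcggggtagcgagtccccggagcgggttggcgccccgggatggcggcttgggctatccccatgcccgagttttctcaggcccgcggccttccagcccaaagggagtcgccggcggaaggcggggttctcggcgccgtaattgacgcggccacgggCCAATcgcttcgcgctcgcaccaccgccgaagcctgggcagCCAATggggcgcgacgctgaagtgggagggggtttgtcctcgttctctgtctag
The Srsf7 stretch holds 1 ETS match, 1 palindromic stretch that matches NRF1 on both strands, and 3 GC boxes. Srsf5 holds 2 ETS matches and 3 GC boxes, 1 of which overlaps an ETS match. Hnrnpk holds 2 CCAAT boxes and none of the other letters. Such matches are descriptions of letters and not sites of binding.

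Over all members, 75 of 87 had at least 1 RefSeq promoter window of 300 bases (250 before to 50 after the start), 113 windows in all. ETS letters were present in 21.2% of these windows, against 18.2% of the windows of genes tested and 8.86% of all 32851 windows. NRF1 letters were present in 9.73%, against 6.44% and 3.58%, and TGACGTCA in 6.19% or 7 windows, against 3.06% and 1.79%. GGGCGG was present in 60.2%, against 63.8% and 35.7%, CCAAT in 45.1%, against 37.3% and 37.4%, and TATAAA in 9.73%, against 6.71% and 13.6%. The median observed over expected CpG ratio was 0.871 in the members' windows, 0.763 in those of genes tested and 0.384 in all windows. Against the windows of genes tested, the share in the members was higher for each motif except GGGCGG, and 1 gene can have several windows. The sets are unlike, since the members' windows were drawn from all 87 members, tested or not. Tissue-restricted regulators, most of them untested, held 4 of the 7 windows with TGACGTCA and 4 of the 11 with TATAAA.

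PTB proteins repress exons by binding pyrimidine tracts, and Ptbp2 is the neuronal paralog. Ptbp1 stood at 72.6 and 62.2 FPKM in the WT pair against 81.3 and 65.2 FPKM in the KO-labelled pair. Ptbp3 stood at 53.2 and 55.7 FPKM in the WT pair against 57.8 and 58.9 FPKM in the KO-labelled pair. Ptbp2 stood at 6.34 and 6.60 FPKM in the WT pair, 6.36 FPKM in KO replicate 1 but 10.5 FPKM in KO replicate 2. Ptbp1 and Ptbp2 overlapped between groups, Ptbp3 did not, and 0 of 3 passed the threshold in limma.

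Ptbp2 made up 4.8% and 5.3% of the summed FPKM of the 3 paralogs in WT and 4.37% and 7.82% in KO replicates 1 and 2. Ptbp1 made up 54.9%, 49.9%, 55.9% and 48.4% in the same order. Ptbp1 was thus the leading paralog in every library. The log2 difference of Ptbp1 was 0.12 (SE 0.215) from FPKM and -0.36 by edgeR on fragments, and that of Ptbp3 was 0.10 (SE 0.186) and -0.036, so neither has a direction that both units share.

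Sm and snRNP proteins leaned the other way. All 12 were tested, of which 3 were higher and 9 lower in the KO-labelled libraries, with a median log2 difference of -0.22 and 0 called. The KO-labelled values lay below both WT values in 5 members and above both in 1 (15.1% and 20% of all genes). By edgeR the split was 6 and 6, with a median of -0.11. The median stayed below 0 under every alternative run, between -0.31 and -0.030. It was -0.030, with a split of 6 and 6, without KO replicate 2, -0.13 without KO replicate 1 and -0.12 without WT replicate 1. Upper quartile scaling gave -0.31, and the correction for GC content and length gave -0.30 with 2 higher and 9 lower. The family took few fragments, 153 and 150 CPM in WT and 144 and 130 CPM in KO replicates 1 and 2, with intervals of 141 to 165, 141 to 158, 136 to 152 and 122 to 139 CPM. The interval of KO replicate 1 overlaps both WT intervals, and that of KO replicate 2 lies below both.

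Snrpe (chromosome 1, 133603871 to 133610291, minus strand), a subunit of the Sm ring, had the largest absolute log2 difference of all members. It stood at 13.2 and 14.9 FPKM in the WT pair, 9.95 FPKM in KO replicate 1 but 1.20 FPKM in KO replicate 2. Groups were separate, but the size of the difference came from KO replicate 2, where 3 fragments were recovered against 23, 51 and 50 in WT replicates 1 and 2 and KO replicate 1. Its CPM there was 0.425 (95% interval 0.0876 to 1.24), against 5.52 and 6.22 in WT. Its log2 difference amounted to -1.61 (SE 0.715, adjusted p = 0.948 in limma) and -0.46 without KO replicate 2.

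Snrpd3, another Sm ring subunit, stood at 13.8 and 14.0 FPKM in the WT pair, 13.1 FPKM in KO replicate 1 but 3.30 FPKM in KO replicate 2, with 29, 59, 78 and 11 fragments. Here too KO replicate 2 alone was low. On the log2 scale the difference came to -0.94 (SE 0.546, adjusted p = 0.948 in limma) and -0.080 without KO replicate 2. Snrpa, an RNA-binding protein of U1 snRNP, showed the reverse by FPKM. It stood at 20.8 and 19.5 FPKM in the WT pair, 7.88 FPKM in KO replicate 1 but 18.6 FPKM in KO replicate 2. The log2 difference was -0.68 (SE 0.394), and -1.06 by edgeR (edgeR unadjusted p = 0.046 and edgeR adjusted p = 0.999). By recovered fragments it had 25.7 and 20.1 CPM in the WT pair against 6.84 and 15.3 CPM in the KO-labelled pair. Snrpb2, a protein of U2 snRNP, varied within each group, with 3.07 and 7.55 FPKM in the WT pair against 5.29 and 12.8 FPKM in KO replicates 1 and 2, a log2 difference of 0.66 (SE 0.515).

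Snrpn (chromosome 7, 59974149 to 60005064, minus strand) encodes SmN, a paralog of the Sm protein SmB that is abundant in brain and is expressed from the paternal allele, and SmB is encoded by Snrpb. Snrpn stood at 1.91 and 2.93 FPKM in the WT pair against 4.79 and 5.59 FPKM in the KO-labelled pair. There was no overlap between groups, with 17, 51, 104 and 80 fragments in the same order. It differed by 0.87 log2 units (SE 0.306, limma unadjusted p = 0.030 and limma adjusted p = 0.948). Snrpb stood at 44.9 and 40.3 FPKM in the WT pair against 25.6 and 42.0 FPKM in the KO-labelled pair, which overlapped between groups, a log2 difference of -0.37 (SE 0.281).

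Snrpn accounted for 4.08% and 6.77% of the summed FPKM of Snrpb and Snrpn in WT and for 15.8% and 11.8% in KO replicates 1 and 2. Snrpb remained the major form in every library. The 9 neuronal markers in the list summed to 2.41 and 2.001 FPKM in the WT pair against 1.16 FPKM in each library of the KO-labelled pair. Of these markers, 4 were at 0 in all libraries, and the part of neuronal RNA in the Snrpn values was not tested. Snrpn shares its locus with another gene in the table, so fragments of the 2 cannot be told apart with certainty.

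The SF3a and SF3b subunits hold U2 snRNP on the branch point. All 8 were tested, 4 higher and 4 lower, with a median log2 difference of 0.03 and 0 called. KO replicate 1 alone had a median of 0.31 and KO replicate 2 alone one of -0.25, opposite in sign, and upper quartile scaling gave -0.044 for both together. Sf3b2 was the most abundant, with 39.6 and 35.5 FPKM in the WT pair against 52.7 and 33.4 FPKM in the KO-labelled pair. These values overlap between groups.

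Sf3b5 (chromosome 10, 13005343 to 13009183, plus strand), the smallest of the SF3b subunits, stood at 17.8 and 18.4 FPKM in the WT pair against 9.34 and 12.3 FPKM in the KO-labelled pair. Both KO-labelled values lay below both WT values. Its log2 difference amounted to -0.70 (SE 0.237, limma unadjusted p = 0.026 and limma adjusted p = 0.948) and -0.69 by edgeR, with -0.52 when KO replicate 1 was left out and -0.88 when KO replicate 2 was. Sf3a1 stood at 11.4 and 10.0 FPKM in the WT pair against 17.0 and 11.9 FPKM in the KO-labelled pair, a log2 difference of 0.38 (SE 0.263). Sf3a2 stood at 11.9 and 5.78 FPKM in the WT pair against 9.13 and 2.17 FPKM in the KO-labelled pair, so its spread within each group exceeded the difference between them.

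Factors of the 3′ splice site numbered 4, of which 4 were higher from FPKM and, by edgeR, 2 were higher and 2 lower; 0 were called. Their median log2 difference was 0.27 from FPKM and 0.013 by edgeR, with 0.68 in KO replicate 1 against -0.0030 in KO replicate 2. Sf1, which binds the branch point, stood at 75.5 and 67.3 FPKM in the WT pair, 113 FPKM in KO replicate 1 but 51.1 FPKM in KO replicate 2. The KO-labelled values lay on opposite sides of WT. U2af1, the subunit that reads the AG of the 3′ splice site, stood at 16.2 and 17.7 FPKM in the WT pair against 34.0 and 18.3 FPKM in the KO-labelled pair, a log2 difference of 0.53 (SE 0.322, adjusted p = 0.948 in limma). The groups did not overlap, but KO replicate 2 lay only just above WT.

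U2af1 and its paralog U2af1l4 share 36.3% and 49.5% of their sampled transcript sequence with other genes, and the balance between them is uncertain for that reason. U2af1 took 49.8% and 59.9% of their summed FPKM in WT and 59.3% and 53.0% in KO replicates 1 and 2. U2af1l4 stood at 16.3 and 11.8 FPKM in the WT pair against 23.3 and 16.2 FPKM in the KO-labelled pair, values that overlap between groups.

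PRPF proteins work in the tri-snRNP and in the complexes around it. All 13 were tested, 10 higher and 3 lower, with a median log2 difference of 0.11 (0.05 by edgeR) and 0 called. The median was 0.0027, with 7 higher and 6 lower, without KO replicate 1, 0.25 without KO replicate 2, 0.038 without WT replicate 1 and 0.024 with upper quartile scaling. The family summed to 1124 and 1200 CPM in WT and to 1202 and 1253 CPM in the KO-labelled libraries, and the counting interval of KO replicate 1, 1180 to 1224 CPM, overlapped that of WT replicate 2, 1176 to 1224 CPM. Prpf8, the large protein at the heart of the spliceosome, was nearly level, with 71.5 and 72.1 FPKM in the WT pair against 72.5 and 75.7 FPKM in the KO-labelled pair. Its log2 difference was 0.04 (SE 0.184).

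Prpf3 and Prpf4b lay on opposite sides of WT in the 2 KO-labelled libraries. Prpf3, a tri-snRNP protein, stood at 12.2 and 11.3 FPKM in the WT pair, 36.6 FPKM in KO replicate 1 but 7.51 FPKM in KO replicate 2. Prpf4b, a kinase of the spliceosome, stood at 6.85 and 10.2 FPKM in the WT pair, 2.15 FPKM in KO replicate 1 but 15.4 FPKM in KO replicate 2. Each KO-labelled library lay outside the WT range for both genes, on opposite sides. The log2 differences were 0.49 (SE 0.659) and -0.38 (SE 0.747), both smaller than their errors. Prpf3 is named outside the rule for named genes, after its values were seen, since it was called without KO replicate 2 with a log2 difference of 1.56.

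Tissue-restricted regulators formed an expressed set and a set near 0. Mbnl1, Mbnl2, Mbnl3, Celf1, Celf2 and Rbfox2 were tested, and the remaining 8 of the 14 did not reach 1 FPKM in any library. Mbnl2, the highest, stood at 47.1 and 47.5 FPKM in the WT pair against 39.5 and 50.3 FPKM in the KO-labelled pair. Mbnl1 stood at 49.9 and 48.5 FPKM in the WT pair against 36.7 and 49.0 FPKM in the KO-labelled pair, and Mbnl3, the X-linked member, at 25.1, 26.3, 25.6 and 29.6 FPKM in the same order. Muscleblind-like (Mbnl) proteins promote adult splicing patterns.

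Celf1 stood at 24.2 and 28.1 FPKM in the WT pair against 21.3 and 31.8 FPKM in the KO-labelled pair. Celf2 was at 16.04, 13.7, 15.99 and 17.8 FPKM in the same order, and Rbfox2, the broadly expressed Rbfox member, at 13.6, 12.9, 13.1 and 15.0 FPKM. Groups overlapped in all 6 genes. The log2 differences lay between -0.21 for Mbnl1 and 0.17 for Celf2, and 0 of 6 were called. Their median was -0.14 in KO replicate 1 against 0.18 in KO replicate 2, and 0.037 from FPKM against -0.055 by edgeR and -0.047 with upper quartile scaling.

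The regulators near 0 are those best known from neurons. Rbfox3, the antigen of the neuronal marker NeuN, and Celf3 had 0 recovered fragments in all 4 libraries. Celf4, Celf5, Celf6, Nova1 and Nova2 were at or below 0.395 FPKM in each library. Rbfox1, which acts in muscle, heart and brain, had 0 and 3 fragments in WT, 19 in KO replicate 1 and 0 in KO replicate 2. A count of 0 allows up to 0.72 CPM in WT replicate 1 and 0.425 CPM in KO replicate 2, against 1.998 CPM measured in KO replicate 1 (95% interval 1.20 to 3.12). KO replicate 1 is the library with 1290 FPKM of summed fast skeletal muscle transcripts, and the part of these in the Rbfox1 value was not tested.

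The other genes of the pathway were read from a list of 144 symbols for further spliceosome proteins and splicing regulators. Of these, 143 were found and 136 rows were tested, of which 86 were higher and 50 lower in the KO-labelled libraries. The median log2 difference was 0.12 (0.07 by edgeR), close to that of the members. None of the 136 was called by limma, edgeR or DESeq2, and 7 had an unadjusted p under 0.05 in limma (4 higher, 3 lower) and 2 in edgeR, against 4.84% and 3.18% of all genes. KO-labelled values lay above both WT values in 36 and below both in 18, beside 20% and 15.1% of all genes.

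Rbm5 and Rbm6, which encode related RNA-binding splicing regulators, had close values within groups. Rbm5 stood at 47.7 and 49.5 FPKM in the WT pair against 73.3 and 72.0 FPKM in the KO-labelled pair, a log2 difference of 0.57 (SE 0.185, adjusted p = 0.948 in limma) and 0.26 by edgeR. Rbm6 stood at 19.8 and 23.2 FPKM in the WT pair against 30.0 and 33.0 FPKM in the KO-labelled pair, a log2 difference of 0.53 (SE 0.210) and 0.55 by edgeR. In both genes the groups did not overlap. Rnpc3, a protein of the minor U11/U12 snRNP, stood at 6.02 and 6.81 FPKM in the WT pair against 30.7 and 12.9 FPKM in the KO-labelled pair. Its log2 difference was 1.505 (SE 0.412) and 0.70 by edgeR. Rnpc3 shares its locus with another gene, so its count is uncertain.

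On the lower side stood Lsm7, of the Lsm ring of U6 snRNP, with 9.16 and 4.55 FPKM in the WT pair against 2.31 FPKM in KO replicate 1 and a listed 0 in KO replicate 2. Bud31 was at 36.4 and 22.2 FPKM in the WT pair against 18.2 and 9.81 FPKM, and Rbm4b at 4.21 and 4.45 FPKM in the WT pair against 2.37 and 1.67 FPKM. Groups were separate in these 3 genes, and their log2 differences were -2.05, -1.03 and -0.83 (adjusted p = 0.948 in limma for each). Of them, Bud31 and Rbm4b share a locus with another gene, so their counts are uncertain. The epithelial splicing regulators were both expressed: Esrp1 at 23.6, 25.0, 21.1 and 23.6 FPKM and Esrp2 at 43.3, 38.9, 50.9 and 37.7 FPKM in WT replicates 1 and 2 and KO replicates 1 and 2. Both overlapped between groups, and both share a locus with another gene.

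FPKM and fragment number can part when fragments are assigned to transcripts of another length, or when the length correction differs between libraries. CPM divided by FPKM gives the length in kilobases that the authors' FPKM implies for a gene, up to 1 constant per library. Over 77 members with at least 10 fragments in every library, 0 were called for a change in this implied length (0.00974% of 10264 genes), and 1 had an unadjusted p under 0.05 (5.55% of all genes). That was U2af1l4, at 0.854 and 0.959 kb in WT and at 0.689 and 0.594 kb in KO replicates 1 and 2, a log2 difference of -0.50 (limma adjusted p = 0.832). The largest rise was in Sf3a2, at 1.43 and 2.196 kb in WT and 2.19 and 2.35 kb in the KO-labelled libraries, a log2 difference of 0.36 that is smaller than the distance between its WT libraries.

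Some members departed from WT in 1 KO-labelled library only. In KO replicate 1, 20 of the 77 members (26.0%) had an implied length more than 0.3 log2 units below the WT mean, against 14.4% of all genes, and in KO replicate 2 there were 10 (13.0% against 12.3%). Ptbp1, one of the 20, was at 2.26 and 2.32 kb in WT, 1.36 kb in KO replicate 1 and 2.01 kb in KO replicate 2. It had 164 and 144 CPM in WT and 110 and 131 CPM in the KO-labelled libraries, so its FPKM lay higher in KO replicate 1 while its share of fragments lay lower.

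Most members with a short implied length in WT had a longer one in KO replicate 1. Implied length is not annotated length. The median annotated coding transcript is 3.84 kb for Sf3b5 and 1.74 kb for Snrpd3, both among the 8 genes below. Hnrnpk and Srsf9, at 0.952 and 0.9645 kb by annotation, are not among them. The 8 members with an implied length under 1 kb in WT were Snrpg, Snrpd1, Snrpd2, Snrpd3, Snrpf, Sf3b5, U2af1 and U2af1l4. Their median ratio to WT was 1.17 in KO replicate 1, against 1.03 for the other members. U2af1l4 went the other way, and the other 7 lay above both WT lengths. In KO replicate 2 the ratio was 0.930 for these 8 and 0.959 for the other members. The constant of a library enters all its ratios, so each ratio is to be read beside that of all other genes. All genes with an implied length under 1 kb, 762 in number, had ratios of 1.16 and 0.936, and all other genes 1.05 and 0.957. Snrpg, another Sm ring subunit, was at 0.199 and 0.207 kb in WT, 0.308 kb in KO replicate 1 and 0.177 kb in KO replicate 2. With no adjustment for that constant, FPKM relative to fragments was lower than in WT for 7 of the 8 in KO replicate 1. It was higher than in WT for all 8 in KO replicate 2. Counted by fragments, which this length does not enter, the Sm and snRNP median was -0.11.

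**Figure D4:**
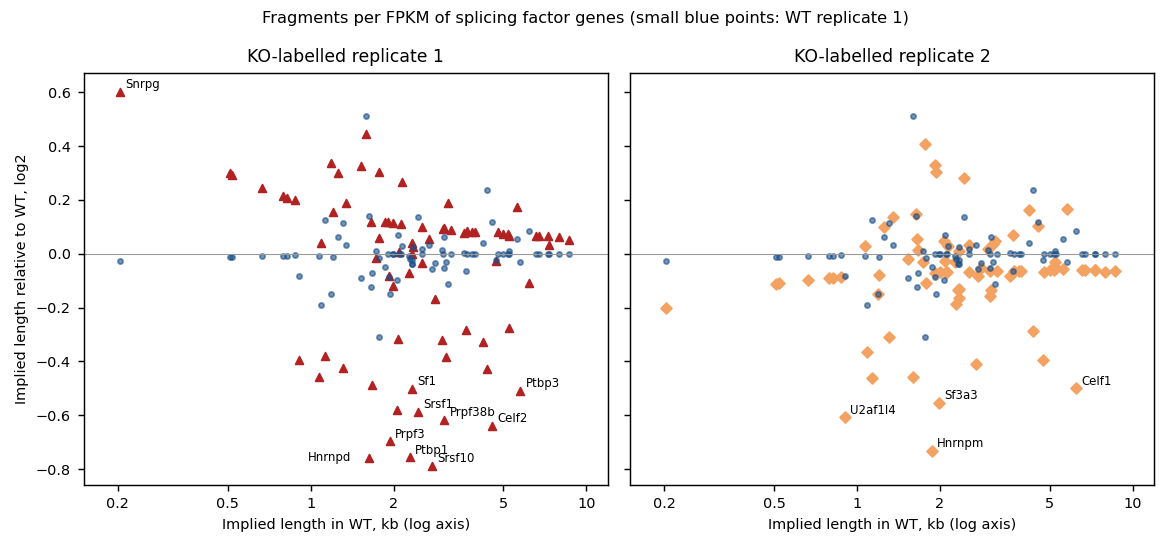
Implied length (CPM divided by FPKM) of 77 members in each KO-labelled library relative to the WT mean, in log2 units, against the implied length in WT in kb (log axis); small blue points are WT replicate 1 against the same mean. Of the 8 genes with an implied WT length under 1 kb, 7 lie above 0 in KO replicate 1 and U2af1l4 below it. All 8 lie below 0 in KO replicate 2. In KO replicate 1, 20 members lie more than 0.3 below 0.

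The annotation holds features that the choice of genes did not use. In GENCODE M21, 42 of the 78 members tested (53.8%) have at least 1 transcript annotated as subject to nonsense-mediated decay, against 29.5% of all genes tested. Among the SR proteins it was 11 of 12, among the hnRNP proteins 10 of 20 and among the SF3a and SF3b subunits 1 of 8. Transcripts with a retained intron are annotated for 60 members (76.9%), against 60.2% of genes tested. The members also have more annotated transcripts, with a median of 7 per gene against 5 in genes tested. The part of this number in both shares was not tested. The median GC content was 46.4% in the members and 51.0% in genes tested. The deposited table has 1 value per gene, so decay-prone and coding transcripts of a gene cannot be told apart in it.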

How the data were processed

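RNA of 4 libraries (2 WT, 2 KO-labelled, grouped by title) was measured by sequencing. Per the submitters' processing notes, the tools were HISAT2 2.0.4, cutadapt 1.9.3, Cufflinks and Cuffdiff 2.2.1, and the build was mm10; the sources used here give no parameters, annotation release or use of strand. FPKM values are the authors', per the file headers, 1 per gene and library. Count columns, named so per the file headers, hold estimated counts that are not whole; within a library they step by a single constant, and division by that constant made 90.0% to 92.4% of values whole within 0.05.

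These recovered fragments were used without rounding for the CPM of a gene and for implied length. They were rounded for edgeR 4.0.16 (quasi-likelihood, TMM) and DESeq2 1.42.0, the alternatives. Family sums in CPM and all counting intervals used the rounded fragment sum. A count of 0 allows 3 fragments, 0.72 CPM in the shallowest library and 0.316 CPM in the deepest. Both floors and intervals reflect counting error alone. Groups were compared with limma-trend (R 4.3.3, limma 3.58.1) on log2(FPKM + 1), with genes at 1 FPKM or more in at least 2 libraries and Benjamini-Hochberg adjustment at 0.05 over all genes tested. Differences on this scale understate changes of low genes.

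The members, families and lists were chosen with earlier results of these data known. Genes with full values were, per family, the highest and the smallest p in each direction; the 10 largest differences; all Rbfox, Celf, Mbnl, Nova and Ptbp genes; Snrpb and Snrpn; and the largest rise and fall of implied length. 1 gene under this rule is not reported here; family counts and medians include all members. Of the other list they were the 3 smallest p in each direction, Esrp1 and Esrp2. Shared sequence is the percent of sampled stretches of a gene's GENCODE M21 transcripts found in those of another gene; 96.8% of the table's identifiers are in that annotation. Among the members, 21 share a locus with another gene in the deposited data. Alternatives covered pseudocount, filter, scaling, variance model, unit and test, replicate block, shared loci and each library left out; a correction for GC content and length, and a centring of implied length, were added after the data were examined. The fits were also run on simulated data in which spread and gene length were the same in every library, unlike these data. No result here rests on that run. Summaries used Python 3.11.15.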

Additional observations from a re-analysis of the deposited data

How the results depend on the processing

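With 2 libraries a group, each value rests on few samples, and leaving out KO replicate 2 was the alternative that made calls. The count of members called was 0 in the limma fit and 0 to 2 with 1 library left out: 2 (Hnrnpa0 and Prpf3) without KO replicate 2. The other spliceosome list gave 0 to 4 in the same way, the 4 being Acin1, Ddx5, Rnpc3 and Srrm1, of which the report describes Rnpc3, and the rest are named after their values were seen. No other alternative run called a member or a gene of that list, and the causes were not tested. The median log2 difference of the members, 0.0987, was 0.0124 with upper quartile scaling and ran from 0.0632 without KO replicate 1 to 0.2049 without KO replicate 2. The implied length test called 0 members under each alternative run.

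Deviations of WT replicate 1 and KO replicate 1 from their group means correlated at r = 0.026 over 11055 genes. This 1 value cannot show whether replicate numbers pair the libraries. With the replicate block, limma still called 0 members and the median was 0.0987. For implied length the block called 328 genes in all (3.2%) and 0 members, against 1 gene (0.00974%) without it.

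Of 37 genes given in full, 23 kept their sign under every alternative run, and 39 of 612 values had the opposite sign. In the order edgeR, DESeq2 and edgeR with no filter, these were -0.3553, -0.3510 and -0.3554 for Ptbp1, -0.1928, -0.1883 and -0.1903 for Sf1, -0.0307, -0.0272 and -0.0320 for Celf2, -0.0360, -0.0312 and -0.0377 for Ptbp3, -0.3090, -0.3046 and -0.3093 for Celf1, and -0.2129, -0.2081 and -0.2121 for Esrp2; Prpf4b was 0.0023 by DESeq2. Upper quartile scaling gave -0.0437 for Prpf8, -0.0851 for Celf1 and -0.0084 for Rbfox2. The correction for GC content and length gave -0.0219 for Ptbp3, -0.0375 for Mbnl3 and -0.0970 for Celf1, and pseudocounts of 0.1 and 0.01 gave -0.0004 and -0.0005 for Celf1. With 1 library left out, the values ran from -0.0423 to 0.2726 for Ptbp1, -0.0219 to 0.6256 for Ptbp2, -0.1602 to 0.4799 for Sf3b2, -0.4704 to 0.6551 for Sf1, -1.5740 to 0.8071 for Prpf4b, -0.2546 to 0.0873 for Mbnl2, -1.5629 to 0.1146 for Sf3a2, -0.0017 to 0.2006 for Mbnl3, -0.2764 to 0.2773 for Celf1, -0.0190 to 0.1677 for Rbfox2 and -0.1204 to 0.3047 for Esrp2. None of these genes was called, and the causes were not tested.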
